A study of Mus musculus with 20 samples.

Results

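The genes described here make, sense and remove prostaglandins in the mesenchyme of the mouse gut. They are the 10 genes *Ptgs1*, *Ptgs2*, *Ptgds*, *Ptgis*, *Ptgdr*, *Ptger1*, *Ptger2*, *Ptger3*, *Ptger4* and *Hpgd*, of 43280 genes counted, and they were chosen by symbol because *Ptgdr* was nearly absent from the control embryonic intestine. The levels of the control intestine against the control stomach are therefore given as a description, with no test. All 10 had counts in the embryonic libraries and passed the filter on low counts there, and 8 passed it in the adult libraries. RNA was sequenced from 8 libraries of GFP+ mesenchymal cells sorted from mouse embryos at E13.5, with 2 libraries for each organ, intestine and stomach, in control and in *Eed* KO embryos. Controls carried *Bapx1*-Cre and the *Rosa26* mTmG reporter, in which cells with Cre activity and their descendants turn from membrane Tomato to membrane GFP, and *Eed* KO embryos also carried *Eed* fl/fl. *Bapx1* (*Nkx3-2*) drives Cre in the early gut mesenchyme, so that the 4 embryonic groups describe that lineage. The labels give the strain of all samples as C57BL/6, whereas the study describes mixed backgrounds, with *Eed* fl from 129 and C57BL/6 and *Rosa26* mTmG from C57BL/6J and CD-1. *Eed* encodes a subunit of PRC2, the complex that places the repressive H3K27me3 mark. Accessible regions came from ATAC-seq, with 1 list of peaks for each of the same 4 conditions. A further 4 RNA libraries, 2 control and 2 labelled *Eed* KO, came from GFP+ cells of the adult intestine at about 10 weeks. These mice carried *Pdgfrb*-CreERT2 and *Rosa26* mTmG, with *Eed* fl/fl in the KO, and received tamoxifen for 5 days, with dissection 2 days later. *Pdgfrb* is active in pericytes and fibroblasts, so that the adult cells are a different population from the embryonic ones.

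Prostaglandins are lipids made from arachidonic acid. The cyclooxygenases COX-1 (*Ptgs1*) and COX-2 (*Ptgs2*) form the shared precursor PGH2, and separate synthases turn it into PGD2 (*Ptgds*, *Hpgds*), PGE2 (*Ptges*) or prostacyclin (*Ptgis*). The products act on neighbouring cells through G protein-coupled receptors, which are DP1 (*Ptgdr*) for PGD2 and EP1 to EP4 (*Ptger1* to *Ptger4*) for PGE2, and 15-hydroxyprostaglandin dehydrogenase (*Hpgd*) inactivates them. In the gut they are known for effects on smooth muscle tone, on blood flow and on the repair of the epithelium. COX-2 is known as the inducible enzyme and COX-1 as the more constant one.

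The promoters of *Ptgdr*, *Ptger2*, *Ptger3* and *Ptgs2*, chosen after their values were seen as members that differed between organs or genotypes, are shown because ATAC-seq peaks, described below, lay on them or next to them. Each run is the 250 bases before the RefSeq transcription start on GRCm38.p6 (the build of the files, mm10), written 5′ to 3′ on the strand of the gene, with each CpG in capitals. Promoters of 8 members were found in the RefSeq table, and those of *Ptger1* and *Ptgis* were not. The windows are chr14:44859376-44859625 (minus strand) for *Ptgdr*, chr14:44987861-44988110 (plus strand) for *Ptger2*, chr3:157566626-157566875 (plus strand) for *Ptger3* and chr1:150099781-150100030 (plus strand) for *Ptgs2*.
Ptgdr: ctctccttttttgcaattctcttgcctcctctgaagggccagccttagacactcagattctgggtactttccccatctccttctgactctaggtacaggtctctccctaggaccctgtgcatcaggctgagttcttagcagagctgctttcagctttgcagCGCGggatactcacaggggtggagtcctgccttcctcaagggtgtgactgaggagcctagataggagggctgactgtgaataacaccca
Ptger2: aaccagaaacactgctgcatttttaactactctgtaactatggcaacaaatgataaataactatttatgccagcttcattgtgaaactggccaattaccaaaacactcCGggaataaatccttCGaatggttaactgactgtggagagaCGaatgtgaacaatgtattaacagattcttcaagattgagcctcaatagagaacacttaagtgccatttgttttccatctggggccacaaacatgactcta
Ptger3: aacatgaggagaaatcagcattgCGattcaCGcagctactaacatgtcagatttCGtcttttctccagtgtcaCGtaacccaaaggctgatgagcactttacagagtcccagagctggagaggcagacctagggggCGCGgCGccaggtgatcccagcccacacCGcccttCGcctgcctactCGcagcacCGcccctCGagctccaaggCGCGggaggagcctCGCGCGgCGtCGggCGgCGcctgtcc
Ptgs2: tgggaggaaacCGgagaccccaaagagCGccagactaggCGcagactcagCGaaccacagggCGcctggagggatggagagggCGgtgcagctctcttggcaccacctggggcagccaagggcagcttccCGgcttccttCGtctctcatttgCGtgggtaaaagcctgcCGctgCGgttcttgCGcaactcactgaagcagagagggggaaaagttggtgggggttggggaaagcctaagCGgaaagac
The *Ptgdr* promoter held 2 CpG and the *Ptger2* promoter 3, against a median of 6 over 27025 promoters, and 80.6% and 70.4% of all promoters held at least as many. The *Ptger3* promoter held 21 CpG and the *Ptgs2* promoter 13, and 16.1% and 31.8% of all promoters held at least as many. GGGCGG, the GC box, searched on both strands, occurred 3 times upstream of *Ptger3* and once upstream of *Ptgs2*. It was not present in the *Ptgdr* and *Ptger2* windows, and 32.9% of all promoters held it. TATAAA occurred in none of the 8 windows, against 13.0% of all promoters. *Ptgdr* and *Ptger2*, both receptors that signal through cyclic AMP, are neighbours on chromosome 14, with their starts 129 kb apart. In the gene models of the files *Ptgdr* spans chr14:44851235-44859375, *Ptger2* chr14:44988195-45003820, *Ptger3* chr3:157566892-157644758 and *Ptgs2* chr1:150100031-150108227, and 22.1% of the exonic length of *Ptgdr* overlaps *Gm16976* on the opposite strand.

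Counts on genes ran from 30236159 to 39606157 in the embryonic and from 11404712 to 15903642 in the adult libraries. CPM is given after TMM scaling, and 3 counts, the upper limit that an observed count of 0 allows, correspond to 0.0765 to 0.101 CPM in the embryonic and 0.21 to 0.30 CPM in the adult libraries, for counting error alone. *Eed*, the targeted gene, was 38.1 and 40.1 CPM in the control intestine and 10.7 and 8.58 CPM in the *Eed* KO intestine, and 40.0 and 41.5 CPM in the control stomach and 11.5 and 7.4 CPM in the *Eed* KO stomach. In the adult libraries *Eed* was 29.7 and 33.4 CPM in controls and 25.6 and 25.0 CPM in those labelled KO, with no overlap, but the log2 fold change of -0.32 ± 0.21 (SE) did not pass the test (adjusted p = 0.32). The study calls its sequencing replicates biological, and which libraries share embryos is not given in the sources used here. The p-values therefore measure the spread between the 2 libraries of a group. This spread was estimated over all groups of a fit together, so that an embryonic p-value also depends on libraries outside its comparison. In bulk RNA, fewer cells of a type and less RNA per cell cannot be told apart. The embryonic libraries held the labelled mesenchyme, with *Pdgfra* at 634 to 1200 CPM, and almost no leukocytes, with *Ptprc* at 0 to 0.0285 CPM.

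*Ptgdr* was a stomach gene among the control libraries. It had 0 counts in both libraries of the control intestine, and 156 and 328 counts, or 4.52 and 8.36 CPM, in the control stomach. Set against 3 counts over the intestinal group, the stomach level was at least 143-fold higher. Of the other members, *Ptger1* and *Ptger2* had the next largest ratios towards the stomach. *Ptger1*, the receptor that raises calcium, was 10.6 and 8.14 CPM in the intestine against 25.2 and 36.8 CPM in the stomach, or 3.32 times higher. *Ptger2* was 1.97 and 1.18 CPM in the intestine against 4.66 and 5.91 CPM in the stomach, or 3.37 times higher. *Ptger4*, the other EP receptor that raises cyclic AMP, was 1.38 and 1.85 CPM in the intestine against 2.67 and 5.15 CPM in the stomach. *Ptgis*, the synthase of prostacyclin, was even between replicates, with 48.0 and 50.7 CPM in the intestine against 103 and 96.9 CPM in the stomach. *Ptgs1* ran the same way, with 14.7 and 18.2 CPM in the intestine against 24.1 and 34.2 CPM in the stomach.

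*Ptgs2* and *Hpgd* were the members with higher control levels in the intestine. *Ptgs2* was 5.90 and 5.28 CPM in the intestine against 1.51 and 1.10 CPM in the stomach, 4.3 times higher in the intestine. *Hpgd* was 26.3 and 25.0 CPM in the intestine against 9.65 and 10.6 CPM in the stomach, 2.54 times higher in the intestine. The enzyme that starts prostaglandin synthesis on demand and the enzyme that ends prostaglandin action thus had the same order between the organs, opposite to the order of *Ptgs1* and *Ptgis*. The organs overlapped for *Ptgds* (intestine 0.449 and 1.08 CPM, stomach 0.985 and 1.71 CPM) and for *Ptger3* (intestine 6.96 and 10.9 CPM, stomach 12.8 and 10.9 CPM). *Ptger3* is the EP receptor that lowers cyclic AMP.

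On a scale per length, the order of levels also differed between the control organs. In the intestine the highest mean TPM were those of *Ptgis* (57.6 ± 3.51, SD, n = 2) and *Hpgd* (44.7 ± 0.525), followed by *Ptger3* (12.8 ± 4.27) and *Ptgs1* (12.7 ± 2.2), which did not differ beyond their spread. Then came *Ptger1* (5.64 ± 0.908), *Ptgs2* (3.65 ± 0.204), *Ptgds* (1.4 ± 0.836), *Ptger2* (1.27 ± 0.425) and *Ptger4* (0.729 ± 0.167), of which *Ptgds* and *Ptger2* did not differ beyond their spread. In the stomach *Ptgis* again led (119 ± 5.68), and *Ptgs1* (22.8 ± 5.5), *Ptger1* (19.0 ± 5.0), *Hpgd* (17.9 ± 1.08) and *Ptger3* (17.1 ± 1.98) followed with spreads (mean ± SD) that overlapped. Below them *Ptgdr* (6.14 ± 2.57) and *Ptger2* (4.36 ± 0.717) did not differ beyond their spread, and *Ptgds* (2.48 ± 0.935), *Ptger4* (1.78 ± 0.798) and *Ptgs2* (0.864 ± 0.195) were lowest. In the control stomach COX-1 mRNA was thus far above COX-2 mRNA.

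**Figure D1:**
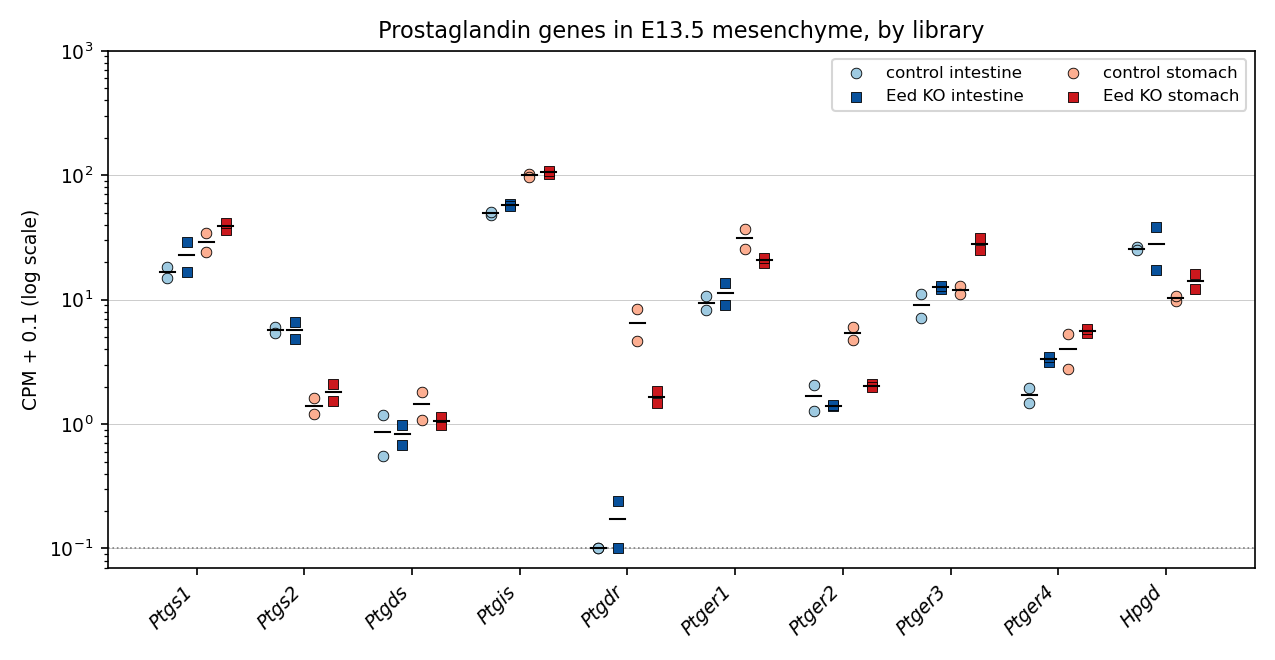
Levels of the 10 genes in the 8 embryonic libraries, as CPM + 0.1 on a log axis, with 1 point for each library and a bar at the mean of each group of 2. *Ptgdr* lies on the dotted line of 0 counts in both control intestinal libraries and at 4.52 and 8.36 CPM in the control stomach, while *Ptgs2* and *Hpgd* lie higher in the intestine.

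The comparison of genotypes in the stomach asked which genes depend on PRC2 in that organ. The receptors moved in opposite directions. *Ptger2* was 4.66 and 5.91 CPM in the control stomach and 1.98 and 1.89 CPM in the *Eed* KO stomach, so that the groups did not overlap and the KO level was close to that of the intestine. Its log2 fold change was -1.45 ± 0.27 (SE, adjusted p = 0.02). *Ptger3* was 12.8 and 10.9 CPM in the control stomach and 25.0 and 31.2 CPM in the *Eed* KO stomach, with a log2 fold change of 1.25 ± 0.22 (adjusted p = 0.017). Thus 1 of 10 members was called higher and 1 of 10 lower, against 4.84% and 0.808% of all genes tested (5.65% in either direction), and the median log2 fold change of the members was 0.235 against 0 over all genes. *Ptgdr* was 4.52 and 8.36 CPM in the control stomach and 1.74 and 1.37 CPM in the *Eed* KO stomach, from 484 and 115 counts in all. The groups did not overlap, and the log2 fold change of -2.05 ± 0.51 missed the threshold (adjusted p = 0.065) but passed it in DESeq2 (adjusted p = 0.00049), without either *Eed* KO intestine library (0.023 and 0.024) and with no filter on low counts (0.0015). With DESeq2 and 1 factor from the spike-in RNA, of the alternatives run the nearest to the processing of the study, it was -4.58 with an adjusted p of 0.35. Spike-in counts were 37590 and 36020 in the control stomach and 12108 and 4871 in the *Eed* KO stomach. In the intestine they were 26227 and 26837 in controls and 14932 and 5501 in the KO. The factor came from these counts without scaling for depth, so that it may take up part of the genotype difference, which was not tested. *Ptger1* was 25.2 and 36.8 CPM against 19.7 and 21.5 CPM (log2 fold change -0.59, 95% interval -1.16 to -0.01, adjusted p = 0.21). In all, 4 of 10 members lay higher in both KO libraries than in both controls and 3 of 10 lower, against 27.7% and 27.3% of all genes.

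The synthesis genes did not pass the test in the *Eed* KO stomach. *Ptgis* was 103 and 96.9 CPM in controls and 103 and 107 CPM in the KO, and its interval of -0.13 to 0.28 (log2) was the narrowest of the members. *Ptgs1* was 35.9 and 41.3 CPM in the KO (interval -0.24 to 1.04), *Ptgs2* was 2.01 and 1.43 CPM (interval -0.27 to 1.08) and *Ptgds* was 0.885 and 1.04 CPM (interval -1.56 to 0.59). *Ptger4* was 5.34 and 5.70 CPM (interval -0.22 to 1.21) and *Hpgd* was 16.1 and 12 CPM (interval -0.31 to 1.25).

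The stomach calls did not hold without some libraries, although the fold changes moved little, from -1.27 to -1.61 for *Ptger2* and from 1.08 to 1.36 for *Ptger3* where the call was lost. *Ptger2* lost its call without control stomach replicate 1 (adjusted p = 0.063) or 2 (0.13) and without *Eed* KO stomach replicate 1 (0.082) or 2 (0.12). *Ptger3* lost its call without control stomach replicate 1 (0.08) or 2 (0.13) and without *Eed* KO stomach replicate 2 (0.097). In DESeq2 with 1 spike-in factor, the adjusted p was 0.18 for *Ptger2* and 0.14 for *Ptger3*, whereas *Hpgd* was called higher (1.75, adjusted p = 1.3e-05) and *Ptger1* lower (-1.25, adjusted p = 0.036). Under that setting 2.47% of all genes were called higher and 2.65% lower. With spike-in totals as the scale *Ptger2* turned to 0.91 and *Ptgdr* to 0.23, where the median of all genes was 2.39. Markers of endothelium were also higher in the *Eed* KO stomach, with a summed level of 24.3 and 44.7 CPM against 15.2 and 14.3 CPM in controls and 4 of 6 markers called higher (*Pecam1*, *Cdh5*, *Emcn* and *Cldn5*). Those of smooth muscle summed to 1820 and 2060 CPM against 2850 and 2970 CPM, with none of 6 called, and of the macrophage markers 1 of 3 tested, *Lyz2*, was called lower (-1.08), while the median of the 3 was 0.98, with *Csf1r* at 0.131 and 0.917 CPM and *Cd68* at 0.481 and 0.96 CPM in control and KO (means of 2). The part of these cells in the receptor values was not tested.

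In the intestine none of the 9 members tested was called in the *Eed* KO (edgeR), against 2.38% of all genes called higher and 0.228% lower (2.61% in either direction), with *Ptgdr* left out of the test. At an unadjusted p under 0.05 there were 2, *Ptger4* and *Ptgis*, and DESeq2 called none as well, with 1 member (*Ptger4*) at an unadjusted p under 0.05. *Ptger4* was 1.38 and 1.85 CPM in controls and 3.03 and 3.39 CPM in the KO, which did not overlap, with a log2 fold change of 1.00 ± 0.33 (adjusted p = 0.2). *Ptger3* was 6.96 and 10.9 CPM in controls and 12.1 and 12.8 CPM in the KO (0.48 ± 0.22, adjusted p = 0.41). *Ptgis* was 48.0 and 50.7 CPM in controls and 58.6 and 56.0 CPM in the KO (0.22 ± 0.09, adjusted p = 0.34). *Ptgs2* was 4.72 and 6.47 CPM in the KO, around the control values, with an interval of -0.6 to 0.6 (log2). *Hpgd* differed widely between the KO replicates, with 38.2 and 17.3 CPM around 26.3 and 25.0 CPM in controls. *Ptgs1* was 16.5 and 28.9 CPM, *Ptgds* 0.58 and 0.884 CPM, *Ptger1* 8.94 and 13.4 CPM and *Ptger2* 1.29 and 1.31 CPM in the KO, each overlapping the controls. The 3 members without overlap, *Ptger4*, *Ptger3* and *Ptgis*, were all higher in the KO, and 21.8% of all genes lay higher in that way. Endothelial markers summed to 45.8 and 45.6 CPM in the KO and 15.3 and 19.4 CPM in controls, with *Cdh5* and *Cldn5* called higher (2 of 6). *Ptgdr* had 0 and 5 counts in the *Eed* KO intestine (0 and 0.143 CPM), against 0 and 0 in the control. The level of *Ptgdr* in the control stomach was 95.8 times that of the *Eed* KO intestine (95% counting interval 40.8 to 296, over the summed counts of 484 and 5).

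**Figure D2:**
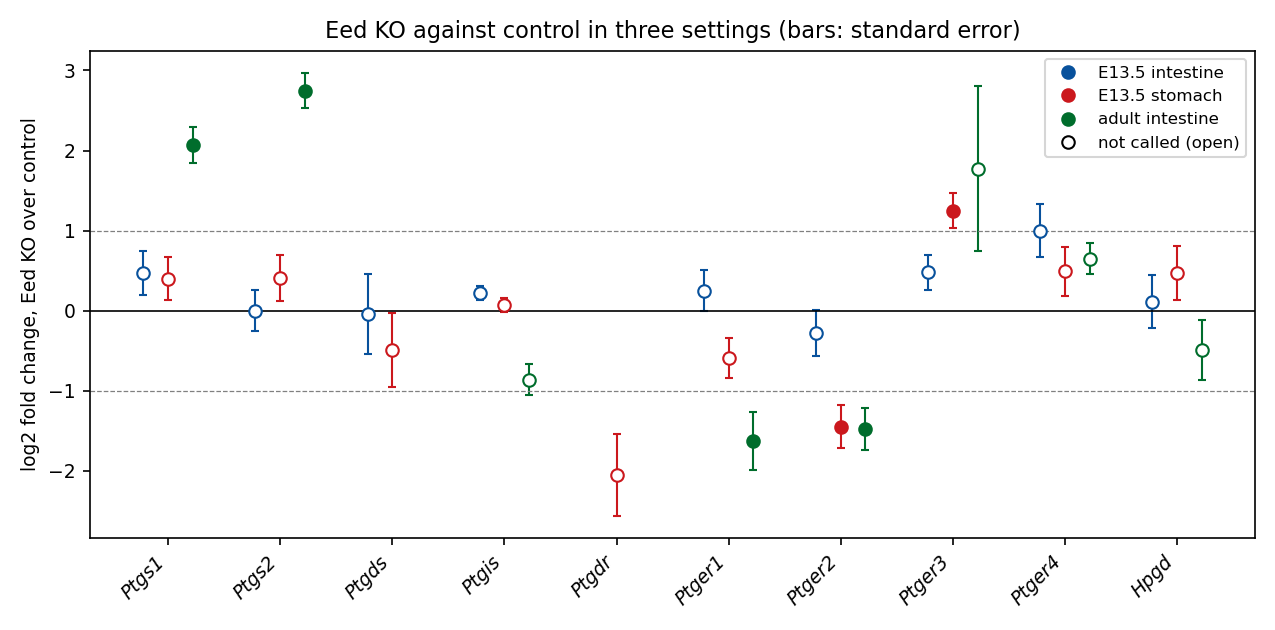
Log2 fold change of *Eed* KO over control for each gene at E13.5 in the intestine (blue), at E13.5 in the stomach (red) and in the adult intestine (green), with bars of 1 standard error and dashed lines at the threshold of 1. Filled points passed the test, namely *Ptger2* (-1.45) and *Ptger3* (1.25) in the embryonic stomach and *Ptgs1* (2.07), *Ptgs2* (2.75), *Ptger1* (-1.63) and *Ptger2* (-1.48) in the adult intestine, while *Ptgdr* is drawn for the stomach alone.

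Without *Eed*, the organs still differed in these genes. The choice of the list did not use the libraries compared here, but the spread was estimated together with the control libraries that it used. *Ptgdr* had 65 and 50 counts (1.74 and 1.37 CPM) in the *Eed* KO stomach, against 0 and 5 in the *Eed* KO intestine. The ratio was 22.8 (95% counting interval 9.47 to 71.4), with a log2 fold change of -4.43 ± 0.8. *Ptgdr* passed the filter on low counts through the stomach libraries alone, so that its difference is given as a description, with no test. The counting interval leaves out the spread between libraries. *Ptgs2* was 4.72 and 6.47 CPM in the *Eed* KO intestine and 2.01 and 1.43 CPM in the *Eed* KO stomach (1.70 ± 0.27, adjusted p = 0.013). *Ptger3* was 12.1 and 12.8 CPM in the intestine against 25.0 and 31.2 CPM in the stomach (-1.17 ± 0.22, adjusted p = 0.023). With *Ptgdr* left aside, 1 member (*Ptgs2*) was called higher in the intestine and 1 (*Ptger3*) lower, against 1.46% and 2.94% of all genes (4.4% in either direction). *Ptgis* was 58.6 and 56.0 CPM in the intestine against 103 and 107 CPM in the stomach, with the smallest adjusted p of the members (0.0024) and a log2 fold change of -0.88 ± 0.09, under the size required. *Hpgd* (0.99 ± 0.33, adjusted p = 0.15) and *Ptger1* (-0.89 ± 0.25, adjusted p = 0.091) did not pass, although their groups did not overlap. *Ptger2*, at 1.29 and 1.31 CPM and 1.98 and 1.89 CPM, had an interval of -1.24 to 0.1. The groups overlapped for none of the members, with 2 of 10 higher in the *Eed* KO intestine (*Ptgs2* and *Hpgd*) and 8 of 10 lower (*Ptgdr* included), against 20.5% and 23.9% of all genes.

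These calls, too, did not hold without some libraries. Where a call was lost the fold change was 1.48 for *Ptgs2* and -1.0 to -1.21 for *Ptger3*. With spike-in totals as the scale, where the median of all genes was -0.24, those of *Ptgs2* (1.66) and *Ptger3* (-1.47) did not pass. The call of *Ptgdr* was lost without *Eed* KO intestine replicate 1 (adjusted p = 0.053) and without *Eed* KO stomach replicate 1 (0.086) or 2 (0.078). That of *Ptgs2* was lost without *Eed* KO stomach replicate 2 (0.084). That of *Ptger3* was lost without *Eed* KO intestine replicate 1 (0.081) or 2 (0.07) and without *Eed* KO stomach replicate 2 (0.13). Without *Eed* KO intestine replicate 2, *Hpgd* was called higher in the intestine (1.45, adjusted p = 0.0089) and *Ptgs1* lower (-1.22, adjusted p = 0.042). Markers of smooth muscle were higher in the *Eed* KO intestine than in the *Eed* KO stomach for 4 of 6 (*Tagln*, *Cnn1*, *Des* and *Actg2*), with a median of 1.23 over the 6. Of 5 mesothelial markers *Wt1* alone was called, lower in the intestine, while the median of the list was 0.22, and of 3 macrophage markers tested *Lyz2* alone was called, higher, with a median of -0.04. The part of these cells in the organ difference was not tested.

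Whether the organ difference itself changed without *Eed* was tested with the interaction of organ and genotype. None of 9 members was called (edgeR, adjusted p under 0.2), against 0.462% of all genes, with 3 at an unadjusted p under 0.05, namely *Ptger1* (0.84 ± 0.35), *Ptger2* (1.17 ± 0.4) and *Ptger3* (-0.77 ± 0.31). Their adjusted p were 0.83, 0.66 and 0.81. DESeq2 also called none, with 3 at an unadjusted p under 0.05, and with 1 spike-in factor it called *Ptger1* (1.02, adjusted p = 0.1). With that factor 1.1% of all genes were called higher and 0.79% lower. For *Ptger2* the organ ratio of mean CPM was 3.37 in controls, and without *Eed* its means were 1.94 CPM (stomach) and 1.3 CPM (intestine).

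The genes with the pattern most like *Ptgdr* over the 8 embryonic libraries were *Lor*, *Kcns3*, *Xpnpep2*, *Cbln2* and *Frmpd4*, among 13385 genes compared, by the root mean square difference of log2(CPM + 0.1) after centring each gene. The differences were 0.539, 0.673, 0.797, 0.82 and 0.82, against a median of 2.49 over all genes. The libraries are shared by all these genes, so that the likeness is a description. *Lor*, which encodes loricrin of the cornified envelope, was 0.421 and 0.404 CPM in the control intestine, 0.738 and 0.913 CPM in the *Eed* KO intestine, 29.5 and 25.7 CPM in the control stomach and 13.2 and 15.6 CPM in the *Eed* KO stomach. *Kcns3*, a potassium channel subunit, was 38.4 and 56.1 CPM in the control stomach and 1.21 and 1.75 CPM in the control intestine.

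The other genes of the prostanoid and lipoxygenase pathways were a list of 41, of which 32 were tested in the embryonic libraries. In the *Eed* KO stomach 5 were called higher and none lower, against 4.84% and 0.808% of all genes. They were *Ptges*, the inducible PGE2 synthase (6.69 and 7.26 CPM in controls, 13.0 and 15.2 CPM in the KO, 1.01 ± 0.16, adjusted p = 0.011), and *Ptgfr*, the receptor of PGF2α (2.12 and 1.45 CPM, then 5.42 and 5.18 CPM, 1.57 ± 0.26, adjusted p = 0.014). The prostaglandin transporter *Slco2a1* rose from 4.93 and 3.72 CPM to 8.77 and 11.4 CPM (1.23 ± 0.22, adjusted p = 0.018). *Ptgdr2*, the other PGD2 receptor, was at most 0.439 CPM in any embryonic stomach library (2.31 ± 0.55, adjusted p = 0.045), and *Alox12*, a lipoxygenase, rose from 0.116 and 0.229 CPM to 1.69 and 2.08 CPM (3.40 ± 0.48, adjusted p = 0.0071). None of these 5 calls held in DESeq2 with 1 spike-in factor, where the adjusted p of *Ptges*, *Ptgfr*, *Slco2a1* and *Alox12* were 0.29, 0.084, 0.43 and 0.097 and that of *Ptgdr2* was not given.

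Each of these calls was also lost without some library. Without control stomach replicate 1 the adjusted p was 0.085 for *Ptges*, 0.055 for *Slco2a1* and 0.058 for *Alox12*, and without control stomach replicate 2 it was 0.068 for *Ptges*, 0.092 for *Ptgfr* and 0.13 for *Slco2a1*. Without *Eed* KO stomach replicate 2 it was 0.073 for *Ptges*, 0.069 for *Ptgfr* and 0.11 for *Slco2a1*, and without *Eed* KO stomach replicate 1 it was 0.055 for *Ptgfr*. *Ptgdr2* lost its call without any 1 of the 8 libraries (adjusted p 0.058 to 0.25). In the intestine 2 were called higher and none lower, against 2.38% and 0.228% of all genes. *Alox12* was 0.0562 and 0 CPM in controls and 0.765 and 0.799 CPM in the KO (4.53 ± 0.7, adjusted p = 0.019), and *Alox15* was 0.0281 and 0.0673 CPM in controls and 0.422 and 0.371 CPM in the KO (3.01 ± 0.58, adjusted p = 0.039). Both had control counts at or under the floor of 3 counts, so that the size of their fold changes depends on the fit. *Alox15* lost its call without any 1 of the 8 libraries (adjusted p 0.057 to 0.27), and *Alox12* without either control intestine library (0.069 and 0.089) or *Eed* KO intestine replicate 2 (0.057).

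Between the *Eed* KO organs 1 pathway gene was called higher in the intestine and 3 lower, against 1.46% and 2.94% of all genes, and the interaction called none of 32. The prostacyclin receptor *Ptgir* was higher in the intestine, with 5.56 and 5.96 CPM against 1.58 and 1.89 CPM (1.73 ± 0.17, adjusted p = 0.0023), in the opposite direction to *Ptgis*, which makes its ligand. *Ptgfr* was lower (1.79 and 1.57 CPM against 5.42 and 5.18 CPM, adjusted p = 0.012), as were *Alox15* (0.422 and 0.371 CPM against 2.68 and 1.97 CPM, adjusted p = 0.007) and the leukotriene receptor *Cysltr1* (6.12 and 6.39 CPM against 16.8 and 12.7 CPM, adjusted p = 0.018). *Ptgfr* lost its call without *Eed* KO intestine replicate 2 (0.057) and without *Eed* KO stomach replicate 1 (0.062) or 2 (0.063), and *Cysltr1* without *Eed* KO intestine replicate 1 (0.069) or 2 (0.057) or *Eed* KO stomach replicate 1 (0.085). With spike-in totals as the scale none of these 4 calls held (adjusted p 0.2 to 1.0). Of the pathway genes not called, the highest per length in their sublists were *Pla2g4a* and *Pla2g12a*, which release arachidonic acid, the synthases *Ptges3* and *Cbr1*, *Ptgfrn* and the thromboxane receptor *Tbxa2r*, the reductases *Ptgr1* and *Ptgr2*, and *Lta4h*. *Hpgds*, the PGD2 synthase of blood cells, was at most 0.349 CPM in any embryonic library, and *Ptgds* at most 1.71 CPM, so that both PGD2 synthases were low where *Ptgdr* was detected.

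The ATAC-seq lists showed open promoters at all 10 members in all 4 conditions, *Ptgdr* in the control intestine included. A peak lay within 1000 bp of the transcription start of 10 of 10 members in each list, against 87.8% to 88.9% of all genes tested, so that the presence of a peak did not set the members apart. The fold enrichment of the *Ptgdr* promoter peak (its signal over the local background of MACS2) was 4.58 in the control intestine, 4.43 in the *Eed* KO intestine, 4.33 in the control stomach and 4.55 in the *Eed* KO stomach, with -log10 q of 8.19, 11.6, 10.7 and 16.2. The fold enrichment was thus nearly the same in the organ without *Ptgdr* counts as in the organ with them, while the peak was 710 bp wide in the control intestine, 1211 bp in the *Eed* KO intestine, 1495 bp in the control stomach and 1142 bp in the *Eed* KO stomach. Replicates were pooled before the peaks were called, so that no spread can be given for these values. The *Ptger2* peak, which began inside the gene, had 4.9, 4.92, 4.01 and 4.51 in the same order, and the *Ptgs2* peak had 6.86, 6.16, 6.97 and 6.96. Across the members the values ran from 2.43 at *Ptger1* to 8.49 at *Hpgd*, and the median over all genes with a promoter peak was 6.46 to 6.91 in the 4 lists. *Ptgis*, the most abundant of the members per length, had a fold enrichment of 4.27 to 5.16.

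**Figure D3:**
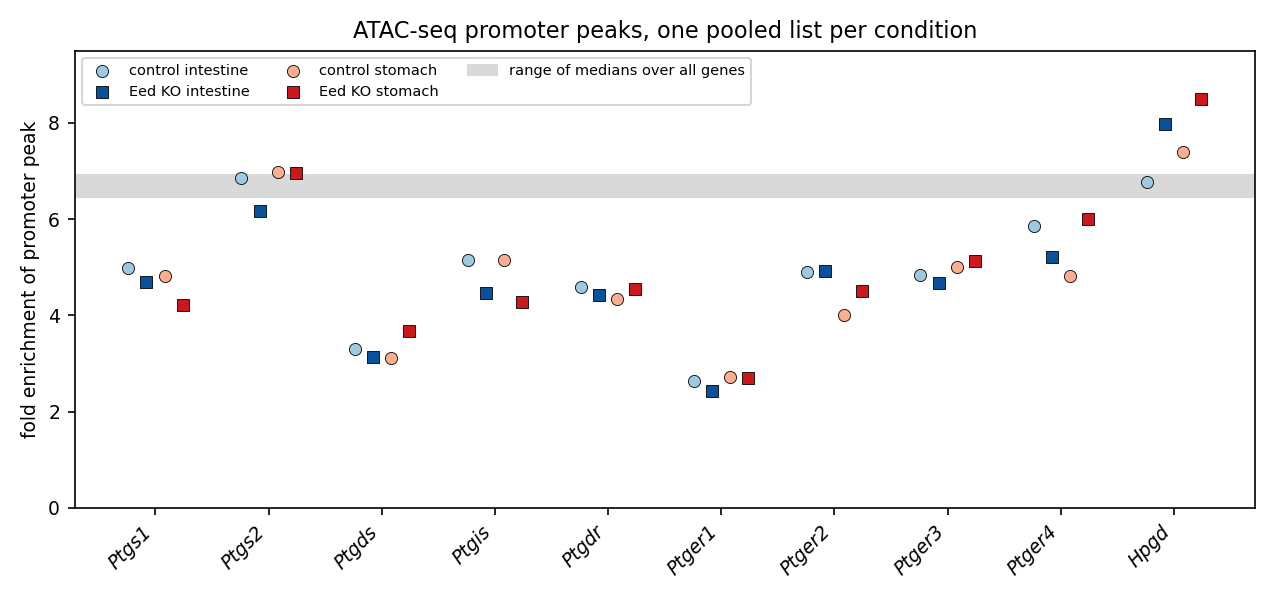
Fold enrichment of the promoter peak of each gene (vertical axis from 0) in the 4 pooled ATAC-seq lists, with the grey band for the range of the medians over all genes with a promoter peak (6.46 to 6.91). The 4 points of *Ptgdr* lie between 4.33 and 4.58, and only *Hpgd* and *Ptgs2* reach the band.

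Beyond the promoters, accessible regions within 50 kb of the gene differed between the control organs at some members. Of 13 regions around *Ptgdr*, 5 were present in all 4 lists, 4 in the control stomach without the control intestine and 0 in the reverse. The strongest of these 4 lay at chr14:44885581-44886142, with its centre at -26486 bp from the *Ptgdr* start (negative is upstream), within the gene of the long noncoding RNA *Gm16976* on the other strand. It had a fold enrichment of 6.38 in the control stomach and 3.94 in the *Eed* KO stomach, 2.48 in the *Eed* KO intestine and no peak in the control intestine. The central 300 bases of this region are shown because its order over the 4 lists was that of the *Ptgdr* RNA, and the region was chosen after these values were seen. They are chr14:44885711-44886010 of GRCm38.p6, plus strand, in lower case throughout since they hold no CpG.
Ptgdr upstream region: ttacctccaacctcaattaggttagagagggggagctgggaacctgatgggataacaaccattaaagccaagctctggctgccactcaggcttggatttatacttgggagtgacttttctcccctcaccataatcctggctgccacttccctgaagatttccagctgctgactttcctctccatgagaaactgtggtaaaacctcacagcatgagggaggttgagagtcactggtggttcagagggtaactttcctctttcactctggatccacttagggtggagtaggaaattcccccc
Searched on both strands, the window held no GTAAACA, the forkhead site, which 5.56% of the central 300 bases of 115780 control stomach peaks held. It held no AGATAA, the GATA site, present in 13.0% of those windows. It also held no TAATTA, a homeodomain site, present in 5.39%, and no TGANTCA, the AP-1 site, present in 10.1%. ATTA, a shorter homeodomain site, occurs in the printed window and was not counted. *Gm16976* itself had 0 counts in the 4 intestinal libraries, 5 and 10 counts in the control stomach and 2 and 4 in the *Eed* KO stomach. A region at chr14:44825143-44825530 was in the stomach lists alone, with 3.48 in the control and 2.63 in the *Eed* KO.

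**Figure D4:**
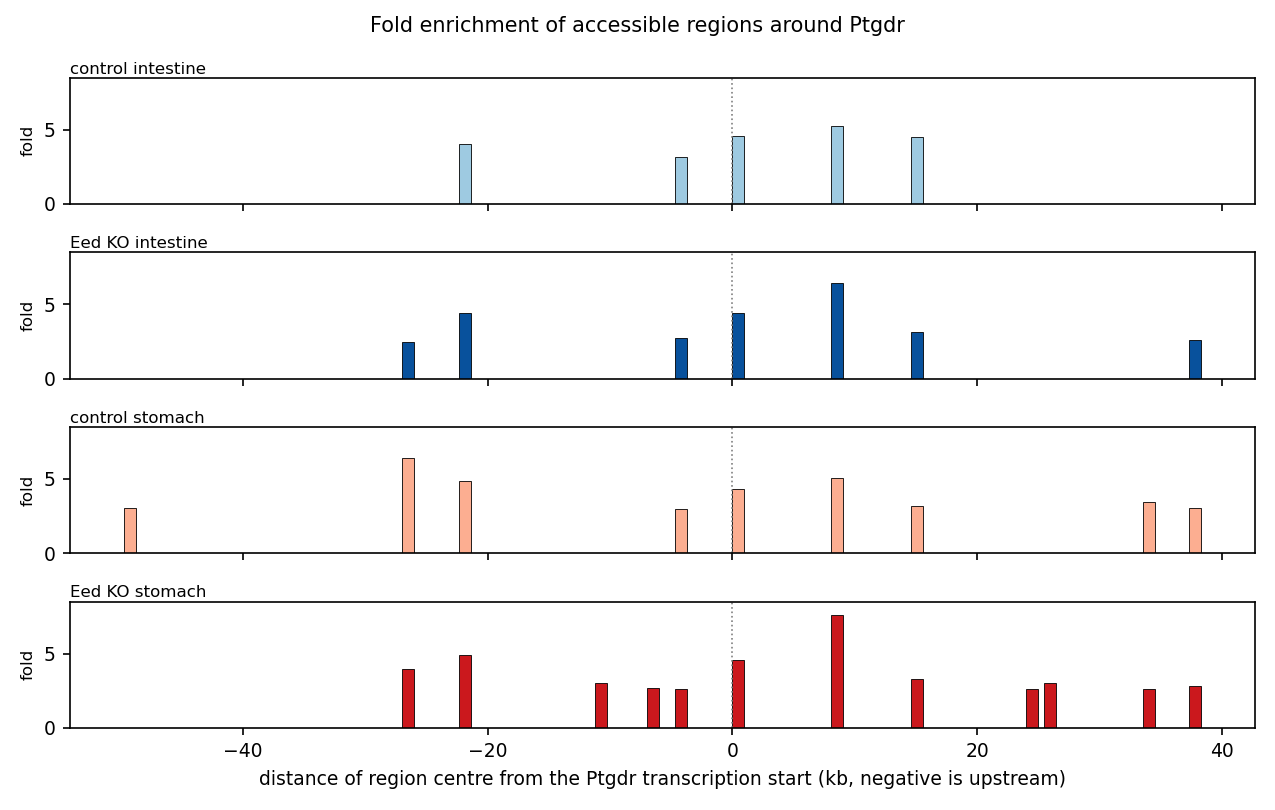
Accessible regions within 50 kb of *Ptgdr* in the 4 ATAC-seq lists, as fold enrichment against the distance of the centre of the region from the transcription start in kb (negative is upstream). The bar at the start is nearly equal in all 4 lists, whereas the bar at -26486 bp is absent from the control intestine and reaches 6.38 in the control stomach.

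Around *Ptger3* 5 of 14 regions were in the control stomach list and not in that of the control intestine, with 0 in the reverse. The strongest lay at chr3:157520568-157520896, with its centre at -46160 bp, and had 7.17 in the *Eed* KO intestine, 6.92 in the control stomach and 8.21 in the *Eed* KO stomach, with no peak in the control intestine. Around *Ptgs2* 2 of 7 regions were in the control intestine list and not in the control stomach, with 0 in the reverse. They had fold enrichments of 2.83 (at 39923 bp) and 3.2 (at 54346 bp), low beside the 6.86 of the promoter peak. *Ptgis* had 4 of 25 regions in the control intestine alone of the control organs and 1 in the reverse, although its RNA was higher in the stomach. *Ptger4* had 3 of 8 regions in the control stomach alone of the control organs, and *Ptger1*, *Ptger2* and *Hpgd* had 1 each, with 0 in the reverse. *Ptgds* had 1 each way, and *Ptgs1* had 2 in the control intestine alone and 1 in the reverse. Presence in a list depends on its threshold and depth, and the lists held 103808 peaks in the control intestine and 115789 in the control stomach, so that counts of regions may differ for that reason, which was not tested.

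In the adult intestine the cyclooxygenases rose in the libraries labelled *Eed* KO, and the receptors *Ptger1* and *Ptger2* fell. *Ptgs2* was 62.2 and 49.4 CPM in controls and 354 and 399 CPM in the KO (log2 fold change 2.75 ± 0.22, SE, adjusted p = 0.00033). *Ptgs1* was 123 and 137 CPM in controls and 615 and 480 CPM in the KO (2.07 ± 0.22, adjusted p = 0.0009). *Ptger2* was 25.0 and 22.1 CPM in controls and 8.61 and 8.26 CPM in the KO (-1.48 ± 0.26, adjusted p = 0.0071). *Ptger1* was 17.0 and 24.7 CPM in controls and 8.51 and 5.02 CPM in the KO (-1.63 ± 0.36, adjusted p = 0.019), and its call was lost without adult *Eed* KO replicate 2 (0.055) or adult control replicate 2 (0.061). Thus 2 of 8 members tested were called higher and 2 of 8 lower, against 12.3% and 7.23% of all genes (19.6% in either direction), and the median log2 fold change was 0.08 against 0 over all genes. The adult counts were unstranded, so that reads from opposite strands cannot be told apart and the adult value of *Ptger1* is uncertain.

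Of the other members, *Ptgis* was 51.8 and 49.6 CPM in adult controls and 26.9 and 28.7 CPM in the KO (-0.86 ± 0.19, adjusted p = 0.019), and *Ptger4* was 29.3 and 29.8 CPM and 45.2 and 47.8 CPM (0.65 ± 0.19, adjusted p = 0.048). Neither reached the required size. *Ptger4* TPM, which has no TMM scaling, was 11.4 ± 0.0922 in controls and 12.2 ± 0.428 in the KO. *Hpgd* was 54.3 and 81.2 CPM in controls and 65.5 and 31.0 CPM in the KO, which overlapped (interval -1.36 to 0.38), and without adult *Eed* KO replicate 1 it passed the test (-1.15, adjusted p = 0.036). *Ptger3* was 0.95 and 0.21 CPM in controls and 0.601 and 3.32 CPM in the KO (interval -0.66 to 4.19). *Ptgds* had 0 and 0 counts in controls and 3 and 4 in the KO, and *Ptgdr* had 0 counts in 3 adult libraries and 1 in *Eed* KO replicate 1, so that neither was tested. In all, 3 of 8 members lay higher and 3 of 8 lower in both KO libraries than in both controls, against 32.3% and 33.0% of all genes.

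The adult libraries also differed in their cells. All 6 macrophage markers measured (of 7 listed) were called higher in the KO, and their summed level was 595 and 816 CPM in controls and 16700 and 15100 CPM in the KO, with none at 0 in any adult library. *Ptprc*, the leukocyte antigen CD45, was 64.2 and 57.1 CPM in controls and 1080 and 923 CPM in the KO (4.04 ± 0.22). Pericyte markers summed to 13300 and 11400 CPM in controls and 4410 and 3160 CPM in the KO, with 3 of 5 called lower, and mesenchymal markers to 11400 and 11900 CPM and 4970 and 3470 CPM, with 4 of 7 tested called lower. Smooth muscle markers summed to 1820 and 2250 CPM and 3140 and 3700 CPM, with 3 of 6 called higher. Of the immediate early genes, which respond to stress and dissociation, *Atf3*, *Fosb* and *Dusp1* were called higher (3 of 8). COX-1 and COX-2 are both known from macrophages, and the part of the change in cells or of the immediate early genes in the values of *Ptgs1*, *Ptgs2*, *Ptger1* and *Ptger2* was not tested.

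**Figure D5:**
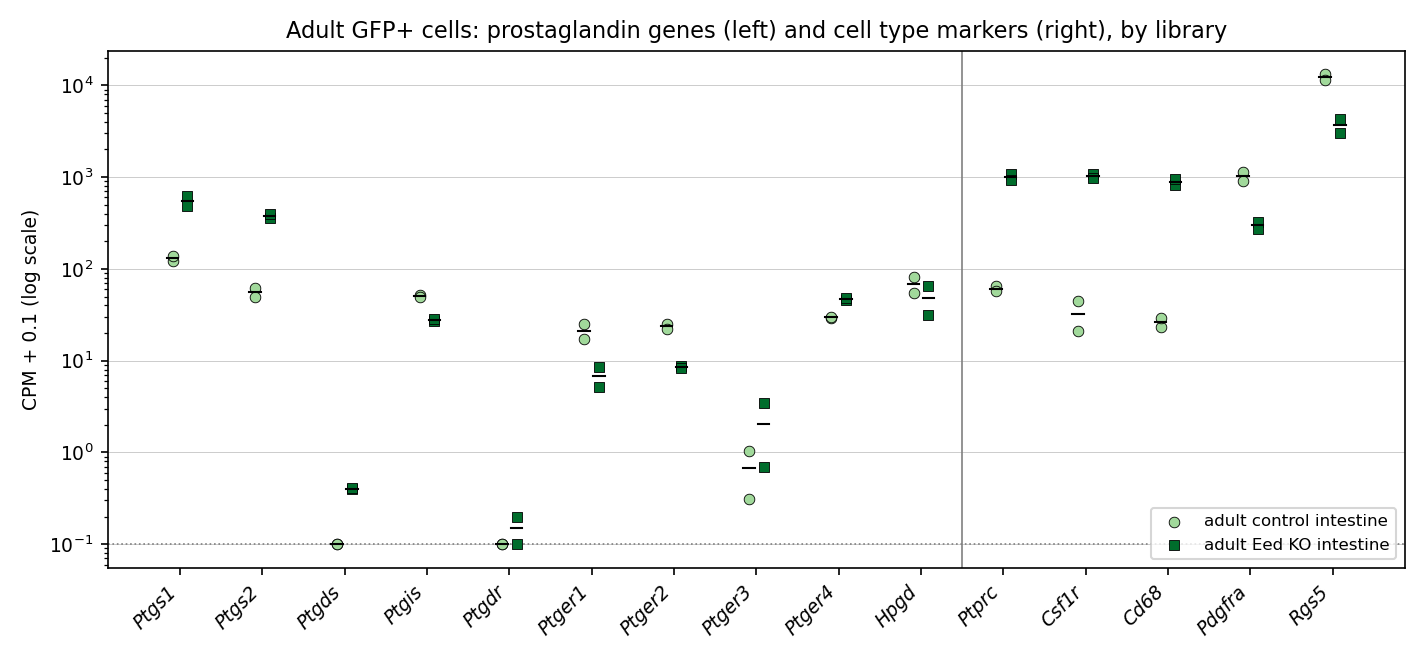
Levels of the 10 genes (left of the line) and of 5 cell type markers (right) in the 4 adult libraries, as CPM + 0.1 on a log axis, with 1 point for each library and a bar at each mean. *Ptgs1* and *Ptgs2* lie higher in both KO libraries, as do *Ptprc*, *Csf1r* and *Cd68*, while *Ptger1*, *Ptger2*, *Pdgfra* and *Rgs5* lie lower.

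Of the 33 other pathway genes tested in the adult libraries, 8 were called higher and 2 lower, against 12.3% and 7.23% of all genes. Those with the largest changes were *Hpgds*, the PGD2 synthase of blood cells (2.05 and 5.52 CPM in controls, 178 and 172 CPM in the KO, 5.52 ± 0.45, adjusted p = 0.00036), the phospholipase *Pla2g2d* (3.14 and 12.8 CPM, then 292 and 185 CPM, 4.90 ± 0.64, adjusted p = 0.0024) and the thromboxane synthase *Tbxas1* (9.93 and 13.7 CPM, then 275 and 220 CPM, 4.39 ± 0.27, adjusted p = 0.00012). In the leukotriene branch, *Ltc4s* (4.35), *Alox5* (3.19), *Cysltr1* (2.66), *Alox5ap* (2.17) and *Cysltr2* (2.11) were called higher, given as log2 fold changes. The cytosolic phospholipase *Pla2g4a* fell from 446 and 428 CPM to 231 and 152 CPM (-1.19 ± 0.24, adjusted p = 0.014), and *Pla2g6* from 12.6 and 4.90 CPM to 2.5 and 2.08 CPM (-1.93 ± 0.56, adjusted p = 0.046). *Ptges* was 63.9 and 61.7 CPM in controls and 31.0 and 34.2 CPM in the KO (-0.95 ± 0.19, adjusted p = 0.012), under the required size. The sublist of the other prostanoid receptors and *Ptgfrn* gave no call among 4 tested. *Pla2g4a* lost its call without adult *Eed* KO replicate 2 (log2 fold change -0.93) and with spike-in totals as the scale (adjusted p = 0.051), *Pla2g6* without adult control replicate 1 (adjusted p = 0.36) or adult *Eed* KO replicate 1 (0.072) or 2 (0.12), and *Cysltr2* without adult control replicate 2 (0.13) or adult *Eed* KO replicate 1 (0.22). Many of these genes are known from macrophages and mast cells. Mast cell markers summed to 50 and 21.7 CPM in controls and 43.7 and 77.6 CPM in the KO, with none of 4 tested called and a median log2 fold change of -0.44. In means of controls and KO, *Kit* (12.9 and 35.1 CPM) and *Cpa3* (11.3 and 21.0 CPM) were higher in the KO. *Tpsb2* (5.09 and 1.02 CPM) and *Cma1* (5.42 and 1.55 CPM) were lower. The part of macrophages or mast cells in these calls was not tested.

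The control intestine could be set side by side at E13.5 and in the adult, but stage, Cre line, library kit and strandedness differed together and cannot be told apart. *Ptgs2* was 3.65 ± 0.204 TPM at E13.5 and 31.4 ± 5.67 TPM in the adult, and *Ptgs1* was 12.7 ± 2.2 and 86.0 ± 5.02 TPM. *Ptger2* was 1.27 ± 0.425 and 16.4 ± 1.75 TPM, and *Ptger4* was 0.729 ± 0.167 and 11.4 ± 0.0922 TPM. *Ptger3* ran the other way, with 12.8 ± 4.27 and 0.713 ± 0.652 TPM, and *Ptgds* was 1.4 ± 0.836 TPM at E13.5 and had 0 counts in adult controls. *Ptgis* was 57.6 ± 3.51 and 50.8 ± 2.58 TPM, and *Hpgd* was 44.7 ± 0.525 and 101 ± 26.3 TPM. *Ptgdr* had 0 counts in all 4 control intestinal libraries, so that its level was under the floor at both stages.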

How the data were processed

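RNA-seq covered 8 embryonic and 4 adult libraries and ATAC-seq 4 conditions. The authors aligned RNA reads with STAR 2.5.1b to GRCm38/mm10 and obtained the counts per gene with featureCounts (GENCODE vM4), and they were deposited without normalization, embryonic from a stranded kit (the strand setting of the counting is not given in the sources used here), adult unstranded. ATAC-seq reads were aligned with BWA 0.7.8, replicates were pooled, and broad peaks were called with MACS2 2.1.2. Each peak was deposited by the authors with its fold enrichment (a ratio over background) and its -log10 q.

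Groups followed the labels. Counts were tested with the quasi-likelihood test of edgeR 4.0.16 (TMM, filterByExpr, Benjamini-Hochberg over 16218 embryonic and 15039 adult genes), on 4 group means in the embryonic and 2 in the adult fit. A gene was called at an adjusted p under 0.05 (0.2 for the interaction) with a log2 fold change of over 1 in either direction. Fold changes come from the fit, whereas ratios of mean CPM are computed directly. TPM used the exonic lengths of the adult files. Nearest genes to *Ptgdr* had a mean of at least 1 CPM. A promoter was within 1000 bp of the start. The 99 spike-in rows stayed out of library sizes. The scripts were tested on simulated data. Members and lists were chosen with earlier results of these data known. Named were all members, pathway genes called in any comparison or highest in TPM in their sublist, and the 5 genes most like *Ptgdr*. Marker genes and others named beside a result were named after their values were seen. Alternatives were DESeq2 1.42.0, RLE scaling, no filter, spike-in scaling, 1 RUVg factor, replicate blocks, and leaving out each library.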

Additional observations from a re-analysis of the deposited data

Results flagged for a closer look

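*Ptgis* moved in opposite directions in every library at the 2 stages of the intestine. Groups without overlap were common, with 21.8% of all genes higher in that way at E13.5 and 33.0% lower in the adult. Its log2 fold change in the *Eed* KO was 0.22 at E13.5, with KO libraries at 58.6 and 56.0 CPM above controls at 48.0 and 50.7 CPM, and -0.86 in the adult, with KO libraries at 26.9 and 28.7 CPM below controls at 51.8 and 49.6 CPM. Neither value passed the test together with the required size, the difference between the stages was not tested, and the adult libraries came from another Cre line and kit.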

How the results depend on the processing

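With 2 libraries a group, few calls stood under every alternative. RLE scaling left each of 46 member values on its side of the threshold and in its direction, and so did a replicate block by number within each genotype for its 19 values. Spike-in totals moved the median log2 fold change of all genes to 1.85 (intestine) and 2.39 (stomach) at E13.5, -0.24 between the *Eed* KO organs, -0.53 in the interaction and -0.42 in the adult. Under that scaling 8 members were called higher in each embryonic organ, as were 84.3% (intestine) and 95.1% (stomach) of all genes, and 0 lower in the stomach (0.117% of all genes). Between the *Eed* KO organs 0 were called higher, and *Ptgdr* alone, which is a description, lay under the thresholds for lower, against 0.123% and 0.586% of all genes. Signs changed for *Ptgds* (1.93 in the intestine, 1.9 in the stomach), *Ptger2* (1.53 and 0.91), *Ptgdr* (0.23) and *Ptger1* (1.81) in the stomach, and *Ptgs1* (-0.33) and *Ptgis* (-0.43) in the interaction. Relative to the median, stomach *Ptger2* was -1.48, *Ptger3* 1.33 and *Ptgdr* -2.16. With DESeq2 and 1 RUVg factor, *Ptgs1* was -0.18 in the intestine and -0.45 in the stomach, *Ptger1* was -0.24 in the intestine, *Hpgd* was called higher (1.75) and *Ptger1* lower (-1.25) in the stomach, and the interaction called 1 member higher. In the stomach 2 members were called lower (*Ptgdr* and *Ptger2*) with DESeq2, with no filter and with a replicate block by number. The shares of all genes called lower were 0.92%, 0.781% and 1.12% in that order. In the control organs, spike-in totals gave *Ptgis* 0.72 and *Hpgd* -1.64 (log2, stomach over intestine), where the median of all genes was -0.3. The cause of these changes was not tested.

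Leaving out 1 library changed some member calls in the stomach, between the *Eed* KO organs and in the adult, as given above. Signs changed among values that passed no test. Their lowest and highest values were, in the intestine, -0.56 and 0.69 for *Ptgds*, -0.07 and 0.51 for *Ptger1*, -0.6 and 0.14 for *Ptger2* and -0.57 and 0.57 for *Hpgd*, and in the interaction -0.4 and 0.41 for *Ptgs1*, -0.08 and 1.18 for *Ptgds*, -0.05 and 0.9 for *Ptger4* and -1.04 and 0.1 for *Hpgd*. A lone library was assumed to vary like the other groups. Same-numbered libraries deviated together (correlation 0.34 between the control organs, 0.714 between the *Eed* KO organs, 0.104 to 0.24 between genotypes, -0.0734 in the adult), but no source used here says which share embryos. The replicate block by number called *Ptgdr* lower in the stomach (-1.97, adjusted p = 0.031) and changed no other member call. Promoter peaks were found at 9 of 10 members in 3 lists with a -log10 q of at least 5, *Ptgds* being absent.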
